A study of Homo sapiens with 2 samples.

Results

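Transcripts of the mitochondrial genome and the nuclear genes that replicate, transcribe and process it were compared between cells given vehicle and cells given iMQT_020. The 47 genes were chosen by symbol from the 46427 gene rows of the deposited table, and all 47 were found there. They comprise 13 mRNAs encoded by mitochondrial DNA (mtDNA) and 34 nuclear genes. The cells are labelled MiaPaca2, a human cell line of pancreatic adenocarcinoma origin. By the series text the treatment, labelled iMQT_020, inhibits the mitochondrial glutamine transporter, and both groups were held for 48 hours with vehicle or compound. The labels used here give no dose. Each group is 1 library, so no difference has a replicate check and none was tested. What the compound did and what else set these libraries apart cannot be told apart.

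The human mitochondrial genome is a small circle whose strands are called heavy and light. Each is transcribed by the polymerase POLRMT into long RNAs that carry many genes. tRNAs lie between most of the mRNAs and rRNAs, and cutting at both ends of each tRNA releases the RNAs on either side, which are then polyadenylated and stabilised or degraded. The mRNAs encode subunits of the respiratory complexes I, III and IV and of ATP synthase, also called complex V, and the remaining subunits come from nuclear genes.

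The vehicle library held 67095283 estimated counts and the iMQT_020 library 59139157. Genes were listed to check the cell line. CDKN2A, which the MIA PaCa-2 line is known to lack, stood at 278 and 208 TPM, a level scaled to transcript length and library. MTAP, its neighbour, stood at 33.7 and 26.2 TPM and CDKN2B at 8.04 and 13.5 TPM. CD44, which the line is known to express, stood at 0.0964 and 0.0209 TPM. ANXA1, listed for the same check, reached only 132 vehicle counts (3.13 TPM) and 100 iMQT_020 counts (2.74 TPM). The levels of CDKN2A and CD44 go against what is known of the line, which leaves the label open to question. VIM, KRT8 and KRT18, also listed, were at 77.5 TPM or more in each library. Ratios below are log2 ratios of CPM (counts scaled to library size by the TMM method), iMQT_020 over vehicle, with exact 95% intervals that cover counting error only. Genes that reached 50 counts in either library are called measured. There were 14805 of them, with a median log2 ratio of −0.02, and 5.23% were at least 2-fold apart.

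The reading frames of the mitochondrial mRNAs are packed so closely that some share bases, and this bears on which counts can be separated. The stretches below are from the heavy-strand transcript sequence of GRCh38, with the bases that belong to both frames in capitals. The frames of ATP8 and ATP6 share 46 bases (chrM:8517-8582 shown), those of ATP6 and COX3 share 1 base (chrM:9187-9227), and those of ND4L and ND4 share 7 bases (chrM:10740-10786).
ATP8/ATP6: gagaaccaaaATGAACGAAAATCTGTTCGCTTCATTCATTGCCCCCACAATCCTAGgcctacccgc
ATP6/COX3: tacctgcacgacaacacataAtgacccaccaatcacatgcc
ND4L/ND4: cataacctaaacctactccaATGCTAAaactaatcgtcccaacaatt
ATP8 and ATP6 are carried on a common mRNA, as are ND4L and ND4, so counts of the frames within each pair are not counts of separate RNAs.

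Several mRNAs end inside their last codon, and the poly(A) tail added by MTPAP, the mitochondrial poly(A) polymerase, completes the stop. In 6 of the 13 annotated frames the length leaves 1 or 2 bases past the last whole codon. The last bases of these frames are shown 5′ to 3′ with the unfinished stop codon in capitals. Each ends directly before the first base of a tRNA gene on the same strand, where the processing enzymes cut.
ND1: agcattccccctcaaaccTA
ND2: tttatactaataatcttaT
COX3: atctattgatgagggtctT
ND3: ggattagactgaaccgaaT
ND4: attaccgggttttcctctT
CYTB: aaaatactcaaatgggccT
None of the frames that end in a whole codon meets a tRNA gene of the same strand directly at its end. COX2 ends 25 bases before TRNK, a tRNA gene of its strand. COX1 ends at a tRNA gene of the opposite strand, and ND5 and ND6 meet end to end on opposite strands.
ND5: accctactcctaatcacaTAA
ND6: gagattgctcgggggaatAGG
The 6 mRNAs that end inside a codon had log2 ratios from 0.42 to 1.40 (median 0.95), and the 7 others from 0.34 to 1.33 (median 0.72). The ranges overlapped over most of their width.

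All 13 mRNAs of the mitochondrial genome were more abundant in the iMQT_020 library, by 0.34 to 1.40 on the log2 scale, with a median of 0.78. Of them, 5 were at least 2-fold higher, where 2.15% of all measured genes were. All 13 also belong to the 9312 genes that reached 1000 counts in either library, of which 0.322% were at least 2-fold higher, 49.3% above 0 and 50.7% below 0. All 13 were above 0, against 47.3% of measured genes. With a 1.5-fold rule 10 of the 13 were higher, against 6.3% of measured genes. The counting intervals of all 13 lay above 0, against 35.0% of measured genes and 3763 of the 9312 with at least 1000 counts. The 13 together took 1.71% of the vehicle counts (Wilson 95% interval 1.71% to 1.72%) and 3.17% of the iMQT_020 counts (3.16% to 3.17%). In bulk RNA, more mitochondrial transcripts in a cell and less of the other RNA cannot be told apart, nor can a change in each cell and a change in the mixture of cells.

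**Figure D1:**
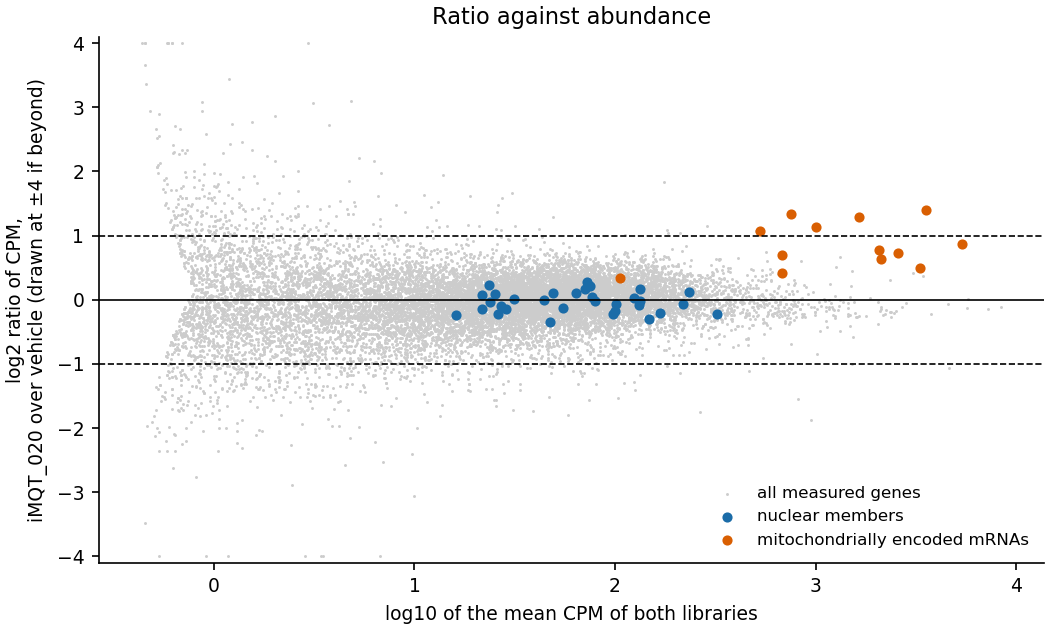
Log2 ratios of CPM, iMQT_020 over vehicle, are plotted against the log10 mean CPM of both libraries for 14805 measured genes in grey, the 33 measured nuclear genes of mitochondrial genome expression in blue and the 13 mitochondrially encoded mRNAs in orange. Dashed lines mark 2-fold, points beyond the axis are drawn at its ends, all orange points lie above 0, and the blue points lie between −0.35 and 0.28.

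Complex I takes in electrons from NADH, and 7 of its subunits are encoded in mtDNA. ND4 had 131205 vehicle counts and 306956 iMQT_020 counts, a log2 ratio of 1.40 (1.39 to 1.41). ND5 had 28805 and 64256 counts, at 1.33 (1.31 to 1.35). ND1 had 42030 and 81504 counts, at 1.13 (1.11 to 1.15). ND4, ND5 and ND1 were thus above 2-fold, as was ND4L with 22752 and 42553 counts, at 1.08 (1.06 to 1.10). ND2 had 102682 and 155627 counts, at 0.78 (0.76 to 0.79). ND3 had 39001 and 46174 counts, at 0.42 (0.40 to 0.44). ND6, the only mRNA of the 13 that lies on the opposite strand from the others, had 6285 and 7023 counts, at 0.34 (0.29 to 0.39). The 7 mRNAs of this complex thus spanned the whole range of the 13.

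Complex III passes electrons from ubiquinol to cytochrome c, and its only mitochondrial subunit is cytochrome b. CYTB had 63760 vehicle counts and 138643 iMQT_020 counts, a log2 ratio of 1.30 (1.28 to 1.31). Complex IV, cytochrome c oxidase, has a catalytic core of COX1, COX2 and COX3. COX1 had 253578 and 408237 counts, at 0.86 (0.86 to 0.87). COX2, which accepts the electrons, had 110694 and 152881 counts, at 0.64 (0.63 to 0.65). COX3 had 183891 and 229338 counts, at 0.49 (0.49 to 0.50). None of these 3 reached 2-fold. The subunits of the membrane sector of ATP synthase were close together, ATP6 with 129621 and 189284 counts at 0.72 (0.71 to 0.73) and ATP8 with 34889 and 50056 counts at 0.70 (0.68 to 0.72).

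**Figure D2:**
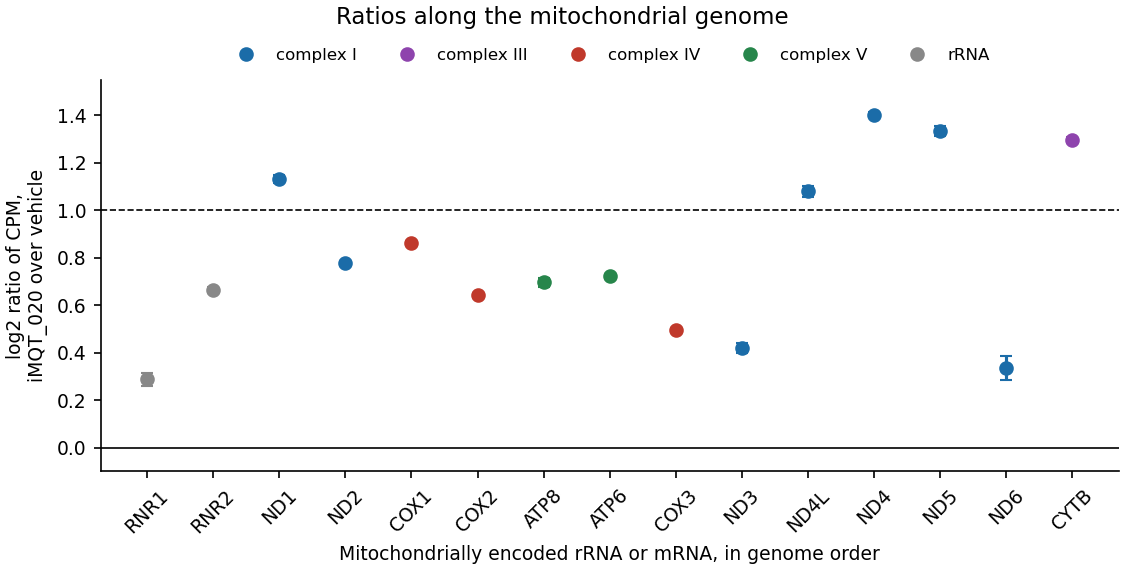
Log2 ratios of CPM, iMQT_020 over vehicle, of the 2 rRNAs and 13 mRNAs are plotted in genome order, coloured by complex, with bars for the exact 95% counting interval and a dashed line at 2-fold. ND1, ND4L, ND4, ND5 and CYTB lie above the line, and ND6 and RNR1 are the lowest at 0.34 and 0.29.

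Counting intervals are narrow at these high counts and leave out any difference between libraries of a group. The share of pairs of other genes with separate intervals was not computed. Of the 78 pairs among the 13 mRNAs, 77 had counting intervals that did not overlap, and the pair that did was ATP8 and ATP6. Their summed counts, 164510 and 239340, gave 0.72 (0.71 to 0.73). The other mRNA with overlapping frames did not behave alike along its length, since the ratio of ND4 was 0.32 above that of ND4L on the log2 scale. Summed, ND4L and ND4 had 153957 and 349509 counts, at 1.36 (1.35 to 1.37). With the frames summed there were 11 units, of which 4 were at least 2-fold higher. In TPM, ND4L stood at 0.805 of ND4 with vehicle and 0.643 with iMQT_020, while ATP8 stood at 0.885 and 0.870 of ATP6. How reads over shared bases were assigned is not given in the sources used here.

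Neighbouring genes on the heavy-strand transcript did not all have like ratios. From COX1 to ND3 the ratios ran between 0.42 and 0.86, and across the tRNA gene between ND3 and ND4L they stepped from 0.42 to 1.08. ND6 and ND5, on opposite strands of adjoining segments, stood at 0.34 and 1.33. Strand use in the counting is not given, so reads from the 3′ part of heavy-strand RNA that lies opposite ND6 cannot be told from ND6 reads. Per length, ND5 was 1.33 times ND6 with vehicle and 2.65 times with iMQT_020. Over the 13 mRNAs, Spearman's rho of the log2 ratio was 0.13 with the start position, 0.41 with GC content, 0.65 with length and −0.26 with the mean log2 TPM of both libraries. Over the 12 without ND6 it was 0.36, 0.28, 0.65 and −0.61 for the same measures, so the values for position and level rest in part on ND6. Length here is that of each annotated frame, also for ATP8 and ATP6 and for ND4L and ND4, which share mRNAs. The points are thus not all separate RNAs, and rho was not computed with these frames summed. The points come from a common pair of libraries, and the 12 share a precursor RNA.

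**Figure D3:**
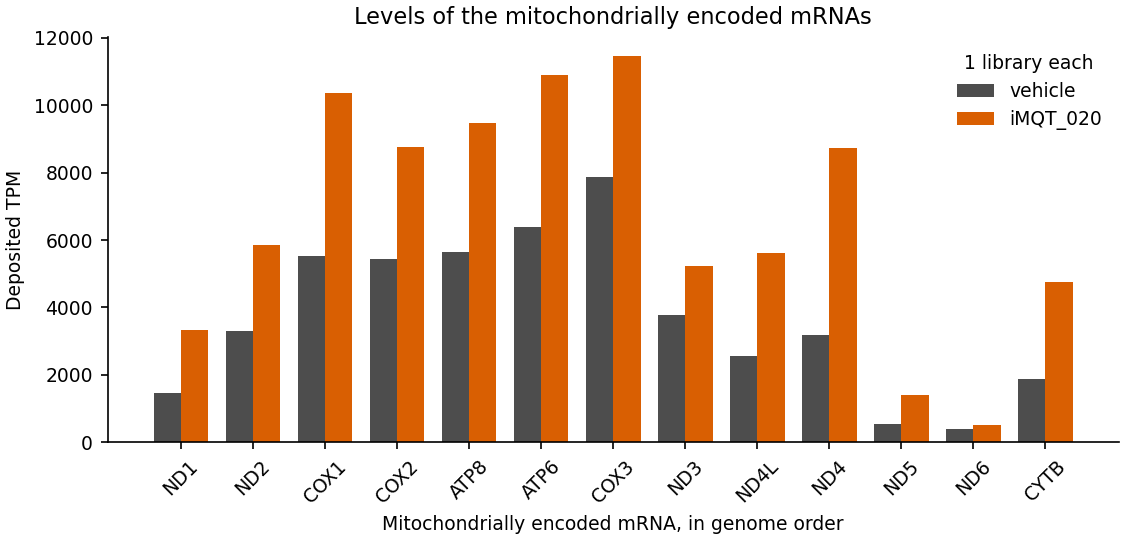
Bars give the deposited TPM of the 13 mRNAs in genome order, in the vehicle library (grey) and the iMQT_020 library (orange), 1 library each and no error bars. COX3 is the highest and ND6 the lowest in both, and ND4 stands at 3195 and 8725.

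Levels per length differed widely among the 13 mRNAs. In the vehicle library, TPM ran from 7870 for COX3 through 6387 for ATP6, 5655 for ATP8, 5518 for COX1, 5430 for COX2, 3782 for ND3 and 3307 for ND2 to 3195 for ND4. Below these lay ND4L at 2570, CYTB at 1875, ND1 at 1475, ND5 at 533 and ND6 at 402. The mRNAs of complexes IV and V thus held the 5 highest places. In the iMQT_020 library the same 5 led, from 11457 for COX3, 10886 for ATP6, 10369 for COX1 and 9471 for ATP8 to 8754 for COX2. ND4, at 8725, was now next, and its Poisson interval overlapped that of COX2, the only neighbours in either library for which this held. Then came ND2 at 5850, ND4L at 5612, ND3 at 5227, CYTB at 4759, ND1 at 3339, ND5 at 1389 and ND6 at 524.

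The order was thus mostly kept, with Spearman's rho between the libraries of 0.96 over 13 mRNAs. ND4 moved from rank 8 to rank 6 and ND3 from rank 6 to rank 9. Over all 13, the highest level was 19.6 times the lowest with vehicle and 21.9 times with iMQT_020. Without ND6, the lowest in both libraries, it was 14.8 times with vehicle and 8.25 times with iMQT_020. COX3 stood at 2.46 times ND4 with vehicle and 1.31 times with iMQT_020. ND4 stood at 0.845 and 1.67 times ND3.

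The make-up of the mitochondrial mRNA pool differed between the libraries. mRNAs of complex I took 32.4% of the vehicle counts of the 13 (Wilson 95% interval 32.4% to 32.5%). Their share of the iMQT_020 counts was 37.6% (37.5% to 37.7%). CYTB took 5.55% (5.51% to 5.59%) and 7.40% (7.37% to 7.44%). Complex IV took 47.7% (47.6% to 47.8%) and 42.2% (42.1% to 42.3%), and complex V 14.3% (14.3% to 14.4%) and 12.8% (12.7% to 12.8%). ND4 alone went from 11.4% (11.4% to 11.5%) to 16.4% (16.3% to 16.4%), and COX3 from 16.0% (15.9% to 16.1%) to 12.2% (12.2% to 12.3%). COX1 held nearly the same share, 22.1% and 21.8%.

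**Figure D4:**
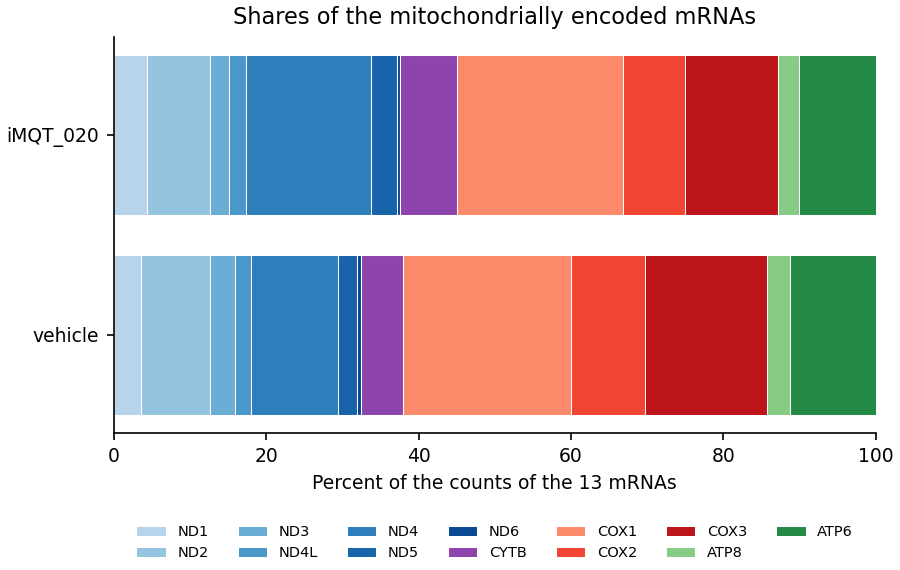
Stacked bars give the percent of the counts of the 13 mitochondrial mRNAs taken by each, in 1 vehicle and 1 iMQT_020 library, with complex I in blue, CYTB in purple, complex IV in red and complex V in green. The blue part is 32.4% with vehicle and 37.6% with iMQT_020.

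The mitochondrial rRNAs, which form the core of the mitochondrial ribosome, also had more counts in the iMQT_020 library. RNR1, the rRNA of the small ribosomal subunit, had 21687 and 23433 counts, a log2 ratio of 0.29 (0.26 to 0.31). RNR2, of the large subunit, had 68720 and 96344 counts, at 0.66 (0.65 to 0.68). Per length, RNR2 was 1.94 times RNR1 with vehicle and 2.52 times with iMQT_020. Counts of the 13 mRNAs were 12.7 times those of the 2 rRNAs with vehicle and 15.6 times with iMQT_020. How the library treated rRNA and RNA without a poly(A) tail is not given in the sources used here.

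Of the 22 mitochondrial tRNA rows, looked at after their values were seen, 10 were measured. Of these, 1 was at least 2-fold higher, against 2.15% of all measured genes. TRNL1, the leucine tRNA that adjoins RNR2 and lies 2 bases before ND1, had 877 and 1723 counts, at 1.15 (1.03 to 1.27), close to ND1 at 1.13. TRNS1, a serine tRNA on the opposite strand that directly follows COX1, had 1360 and 2303 counts, at 0.94 (0.84 to 1.03), beside 0.86 for COX1. TRNY had 517 and 793 counts, at 0.79 (0.63 to 0.96). The counting intervals of 6 of the 10 spanned 0, as did those of 3823 of the 14805 measured genes. Among the 6 were TRNV with 72 and 61 counts, at −0.06 (−0.58 to 0.45), and TRNF with 58 and 53 counts, at 0.05 (−0.52 to 0.61). Without strand and with reads that can reach from a neighbouring RNA, these rows cannot be read as mature tRNAs.

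Ratios varied with GC content and with transcript length over the nuclear genes. Across 10 bins, median log2 ratios fell from 0.13 to −0.31 with rising GC content and rose from −0.20 to 0.18 with length. The 13 mRNAs have a GC content of 39.6% to 47.7%. Each of the 13 was placed by the length of its own frame, also where frames share an mRNA, and the shortest length bin spans 64 to 1119 bases. Nuclear genes from the bins of GC content and length that hold the 13 had median log2 ratios between −0.15 and −0.04. Centred on these bins, a step added after the data were seen, the 13 mRNAs ran from 0.46 to 1.46 with a median of 0.92, and the same number, 5, were at least 2-fold higher. Nuclear copies of mitochondrial sequence can take up reads of these genes. The table had 0 rows with symbols of the form MTND, MTCO, MTATP or MTCYB followed by P and digits, so such sharing was not tested.

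The nuclear genes of mitochondrial genome expression lay close to no difference. Of the 34, 33 were measured, and the counts of the other, PPARGC1A, are given below. Their median log2 ratio was −0.03, with a range from −0.35 for PPARGC1B to 0.28 for GABPA. None was at least 2-fold higher, against 2.15% of all measured genes, and none was at least 2-fold lower, against 3.09%. All 33 reached 1000 counts in a library, and among all genes that did the shares were only 0.322% and 0.956%, with 1.28% at least 2-fold apart. None of the 33 was 1.5-fold apart, against 6.3% of measured genes higher and 10.2% lower. Of the 33, 14 were above 0 and 19 below, against 52.7% of measured genes below. By counting interval, 9 lay above 0 (35.0% of measured genes) and 15 below 0 (39.1%). Of the 9312 genes that reached 1000 counts, 3763 lay above 0 and 3882 below by this measure. The lowest of the mitochondrial mRNAs, ND6 at 0.34, was thus above the highest measured nuclear member. Every nuclear member was also below every mitochondrial mRNA in level except at the bottom of the latter: SSBP1, at 692 and 670.2 TPM, exceeded ND6 in both libraries and ND5 in the vehicle library. All TPM values here are per length.

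**Figure D5:**
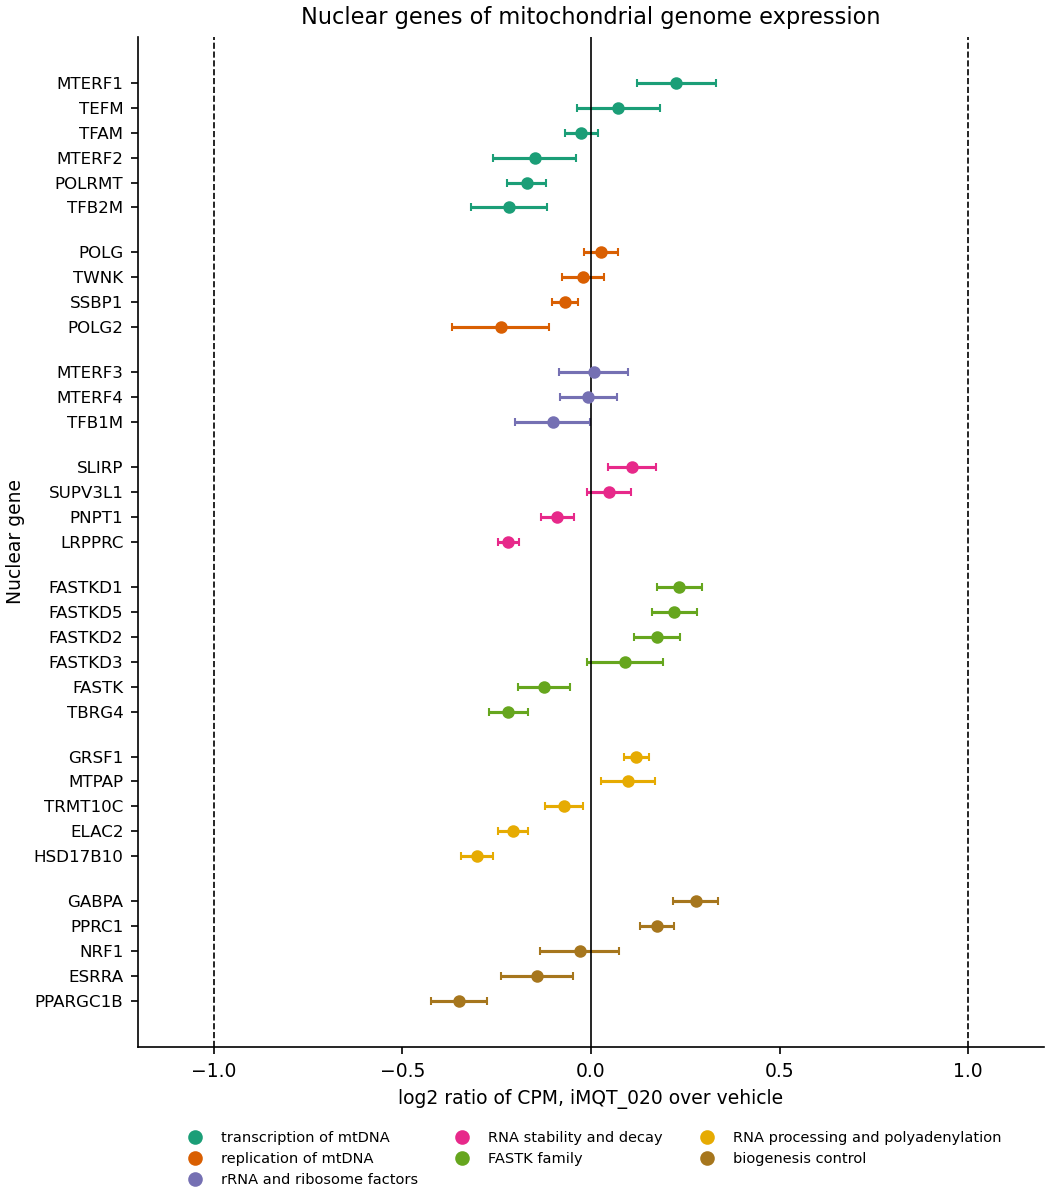
Points give log2 ratios of CPM, iMQT_020 over vehicle, for the 33 measured nuclear genes by role, with bars for the exact 95% counting interval and dashed lines at 2-fold. All points lie between −0.35 and 0.28, and every role has genes on both sides of 0.

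Transcription of mtDNA needs the polymerase POLRMT, the promoter-bending and packaging protein TFAM, the initiation factor TFB2M and the elongation factor TEFM. POLRMT had 7121 vehicle counts and 5599 iMQT_020 counts, a log2 ratio of −0.17 (−0.22 to −0.12). TFAM had 8982 and 7810 counts, at −0.03 (−0.07 to 0.02), and 0.02 on the TPM scale. TFB2M had 1873 and 1427 counts, at −0.22 (−0.32 to −0.12). TEFM had 1411 and 1313 counts, at 0.07 (−0.04 to 0.18). MTERF1, which binds within the gene of TRNL1 downstream of the rRNAs, had 1453 and 1504 counts, at 0.23 (0.12 to 0.33). MTERF2, a relative of it, had 1532 and 1223 counts, at −0.15 (−0.26 to −0.04). Centred on GC content and length, POLRMT was at 0.08, TFAM at −0.21, TFB2M at −0.19, TEFM at 0.10, MTERF1 at 0.05 and MTERF2 at −0.17, so POLRMT changed sides and TFAM lay further from 0 than by counts.

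Replication of mtDNA uses the polymerase POLG with its accessory subunit POLG2, the helicase TWNK and the single-strand binding protein SSBP1. POLG2 had 1162 and 871 counts, at −0.24 (−0.37 to −0.11). SSBP1 had 14998 and 12661 counts, at −0.07 (−0.10 to −0.03). The catalytic subunit POLG had 8288 and 7471 counts, at 0.03 (−0.02 to 0.07), and TWNK 5364 and 4679, at −0.02 (−0.08 to 0.04), which was 0.04 in TPM. Centred, POLG2 was at −0.14, SSBP1 at 0.08, POLG at 0.12 and TWNK at 0.02. The number of mtDNA copies was not measured. Among factors of the mitochondrial rRNAs and ribosome, TFB1M, which methylates RNR1, had 1862 and 1536 counts, at −0.10 by counts (−0.20 to −0.00) and 0.09 in TPM. MTERF3 had 2088 and 1857 counts and MTERF4 2985 and 2630, at 0.01 (−0.08 to 0.10) and −0.01 (−0.08 to 0.07), and each changed sign under another scaling. Centred, the 3 were at −0.15 for TFB1M, 0.12 for MTERF3 and 0.10 for MTERF4.

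LRPPRC and SLIRP form a complex that binds and stabilises mitochondrial mRNAs. LRPPRC had 23301 and 17719 counts, at −0.22 (−0.25 to −0.19). SLIRP had 4097 and 3907 counts, at 0.11 (0.04 to 0.17). The partners thus lay on opposite sides of 0, and in TPM they stood at 128 and 108 for LRPPRC and 364 and 405 for SLIRP. PNPT1 and SUPV3L1 are the nuclease and helicase that degrade mitochondrial RNA. PNPT1 had 9098 and 7571 counts, at −0.09 (−0.13 to −0.04), and SUPV3L1 5072 and 4639, at 0.05 (−0.01 to 0.11). Centred, LRPPRC was at −0.34, SLIRP at 0.24, PNPT1 at −0.22 and SUPV3L1 at 0.08, each on the same side of 0 as by counts.

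The FASTK family binds mitochondrial RNAs and acts on the processing and stability of particular ones. FASTKD1 had 4525 and 4710 counts, at 0.23 (0.17 to 0.29). FASTKD5, which acts at junctions that lack a tRNA, such as that of ATP6 and COX3, had 4618 and 4764 counts, at 0.22 (0.16 to 0.28). FASTKD2, which binds RNR2 and ND6, had 4465 and 4461 counts, at 0.17 (0.11 to 0.24). On the other side, TBRG4, also called FASTKD4, had 7021 and 5337 counts, at −0.22 (−0.27 to −0.17). FASTK, a form of which is needed for ND6 mRNA, had 3848 and 3124 counts, at −0.12 (−0.19 to −0.06). FASTKD3 had 1634 and 1539 counts, at 0.09 (−0.01 to 0.19). Centred, FASTKD1 was at 0.10, FASTKD5 at 0.14, FASTKD2 at −0.04, TBRG4 at −0.04, FASTK at 0.18 and FASTKD3 at 0.03, so FASTKD2 and FASTK changed sides.

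The cuts around tRNAs are made by mitochondrial RNase P, of which TRMT10C and HSD17B10 are subunits, at the 5′ end and by ELAC2 at the 3′ end. HSD17B10, which also acts in isoleucine breakdown, had 10916 and 7839 counts, at −0.30 (−0.34 to −0.26). ELAC2 had 12072 and 9261 counts, at −0.21 (−0.25 to −0.17). TRMT10C had 6940 and 5849 counts, at −0.07 (−0.12 to −0.02). All 3 were below 0, as were 52.7% of measured genes. GRSF1, which gathers newly made mitochondrial RNA, had 15058 and 14480 counts, at 0.12 (0.09 to 0.15). MTPAP had 3158 and 2992 counts, at 0.10 (0.03 to 0.17). Centred, HSD17B10 was at −0.08, ELAC2 at −0.17, TRMT10C at −0.09, GRSF1 at 0.00 and MTPAP at −0.01, so most of the difference of HSD17B10 did not remain.

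Nuclear control of mitochondrial biogenesis runs through the transcription factors NRF1, GABPA and ESRRA and the coactivators of the PGC-1 family. GABPA had 4383 and 4704 counts, at 0.28 (0.22 to 0.34), and its gene overlaps ATP5PF, so reads of the pair may not be separated. PPARGC1B had 3559 and 2471 counts, at −0.35 (−0.42 to −0.28), the lowest of the measured nuclear members. PPRC1 had 8365 and 8358 counts, at 0.18 (0.13 to 0.22). ESRRA had 2018 and 1617 counts, at −0.14 (−0.24 to −0.05). NRF1 had 1618 and 1403 counts, at −0.03 (−0.13 to 0.07), and 0.01 in TPM. Centred, GABPA was at 0.09, PPARGC1B at −0.49, PPRC1 at 0.20, ESRRA at 0.19 and NRF1 at −0.02. PPARGC1A, the best-known coactivator of the family, had 21 and 34 counts, below the minimum for a measured gene, at 0.86 (0.04 to 1.73), and stood at 0.107 and 0.185 TPM.

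Among the nuclear members, levels per length in the vehicle library ran from 692 TPM for SSBP1, 384 for HSD17B10 and 364 for SLIRP to 13.8 for MTERF1 and 11.4 for PPARGC1B, with PPARGC1A below all. POLRMT stood at 62.2 and 57.0 TPM, TFAM at 59.8 and 60.7 TPM and MTPAP at 19.1 and 21.1 TPM. Many neighbours in this order had overlapping Poisson intervals. In the vehicle library these included TRMT10C and LRPPRC, TBRG4 and ELAC2, and the run of POLG, POLRMT and TFAM. In the iMQT_020 library they included TBRG4 and ELAC2, and the run from FASTK through PNPT1, POLG and FASTKD5 to PPRC1.

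Sites of NRF1 and of ETS factors, the family of GABPA, are known from promoters of this machinery. Promoter windows of 300 bases from RefSeq (GRCh38.p14) were matched for 30 of the 34 nuclear members. GCGCNTGCGC, a form of the NRF1 site searched on both strands, was found for 5 of the 30 (16.7%), against 13.4% of 11295 measured genes with a window. Counted by window rather than by gene, and with genes not measured here included, it was in 5.78% of all 35116 windows. A match in each of 4 genes is shown in capitals, on the strand of the gene, since these genes act in transcription and replication of mtDNA or, for TFB1M, on its rRNA. POLRMT has a further match that overlaps the one shown (chr19:633538-633563) and is printed on a line of its own.
POLRMT (chr19:633544-633569, minus strand): cggcgcggGCGCATGCGCaggcgcgg
POLRMT, overlapping match: gggcgcatGCGCAGGCGCgggccggt
TFAM (chr10:58385339-58385364, plus strand): gctctcccGCGCCTGCGCcaattccg
TFB1M (chr6:155314599-155314624, minus strand): aggacttaGCGCATGCGCtctcagca
POLG2 (chr17:64497051-64497076, minus strand): cctccgttGCGCCTGCGCcgtggcct
The 5 genes with this match had a median log2 ratio of −0.14 and the 24 measured genes without it 0.01. Over all measured genes the medians were 0.03 with a match and −0.02 without. CCGGAAGT, an ETS site searched on both strands, was found for 8 of the 30 (26.7%), against 9.80% of measured genes. Counted by window, it was in 4.14% of all windows. The median log2 ratio of the members was −0.04 with this match and −0.09 without it. Over all measured genes these medians were 0.02 and −0.02. A match of letters is not a bound site.

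The mitochondrial and nuclear subunits of each respiratory complex stood apart in the same libraries. For complex I, the 7 mitochondrial mRNAs had a median log2 ratio of 1.08 and the 37 nuclear mRNAs −0.17. For complex III, CYTB was at 1.30 and the 9 nuclear mRNAs had a median of −0.19. For complex IV the medians were 0.64 over 3 and −0.15 over 11, and for complex V 0.71 over 2 and −0.18 over 16. The highest nuclear subunit, NDUFS4 of complex I with 1687 and 1947 counts, was at 0.38 (0.29 to 0.48), above ND6 but below the other 12 mitochondrial mRNAs. The lowest, ATP5F1D of complex V, had 8368 and 4422 counts, at −0.74 (−0.80 to −0.69). The others at the ends of each list were NDUFA11 and NDUFB10 at −0.47 and NDUFA9 at 0.03 in complex I, and UQCR11 at −0.48, CYC1 at −0.41, UQCRFS1 at 0.01 and UQCRB at 0.02 in complex III. In complex IV they were COX5A at −0.32, COX4I1 at −0.23, NDUFA4 at −0.07 and COX6B1 at −0.06. In complex V they were ATP5MC1 at −0.46, ATP5PO at −0.07 and ATP5F1A at −0.05. None of these 73 nuclear genes was 2-fold apart, against 5.23% of measured genes and only 1.28% of those that reached 1000 counts in a library. Centred on GC content and length, the nuclear medians moved to −0.03, −0.10, −0.05 and −0.05 for complexes I, III, IV and V.

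Further genes of the pathway were read from lists chosen with earlier results of these data known. For comparison, 47.3% of all measured genes were above 0, while 2.15% lay 2-fold or more above vehicle and 3.09% 2-fold or more below it. The 19 genes of mtDNA maintenance had a median of −0.10, with 6 above 0 and none at 2-fold. LIG3, the ligase of mtDNA repair and replication, had 5458 and 3168 counts, at −0.61 (−0.67 to −0.55), and RRM2B, a ribonucleotide reductase subunit that supplies deoxynucleotides, 2947 and 3497, at 0.42 (0.35 to 0.49). ATAD3A was at −0.40 and SLC25A36, a pyrimidine nucleotide carrier, at 0.26. Of 33 genes of RNA processing and modification, 9 were above 0, the median was −0.15, none was 2-fold higher and 1 was 2-fold lower, a share close to that of all genes. That gene was GTPBP3, which modifies the wobble base of several mitochondrial tRNAs, with 6254 and 2513 counts, at −1.14 (−1.21 to −1.07). Among genes that reached 1000 counts in a library, as GTPBP3 did, 0.956% were at least 2-fold lower. MRM1, an rRNA methyltransferase, was at −0.80, NSUN3, which methylates the methionine tRNA, at 0.30, and METTL15 at 0.34.

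The 15 measured translation factors had a median of −0.13, with 6 above 0 and none at 2-fold. TUFM, the elongation factor that delivers aminoacyl-tRNA, had 24338 and 16005 counts, at −0.43 (−0.46 to −0.40), and the deformylase PDF was at −0.30. The initiation factors MTIF3 and MTIF2 were at 0.31 and 0.28. The 17 ribosome assembly factors had a median of −0.14, with 5 above 0 and none at 2-fold. RBFA was at −0.59, the pseudouridine synthase family member RPUSD3 at −0.36, the helicase DHX30 at 0.18 and FASTKD2, also a member above, at 0.17. The median of all measured genes was −0.02. Centred on GC content and length, the medians were −0.07 for maintenance, −0.16 for RNA processing and modification, −0.04 for translation and −0.04 for assembly, against 0.00 for all genes.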

How the data were processed

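Total RNA, extracted with Trizol, gave 2 libraries. Reads were mapped to GRCh38, with Bowtie2 and HISAT2 named per the labels' protocols. The submitters' processing notes list StringTie and edgeR without saying what each did. How reads were counted, and whether by strand, is not given in those sources. For each gene the authors deposited an estimated count (a whole number) beside an FPKM (scaled to length and depth) and a TPM (scaled to a common total). The other deposited table, of 20787 genes, holds the same FPKM values (relative tolerance 0.0001). The columns are named 020 minus and 020 plus and were read as vehicle and iMQT_020, on which every direction rests, leaving 0 unassigned.

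Counts were scaled by TMM (edgeR 4.0.16, R 4.3.3; factors 0.998 for vehicle and 1.00 for iMQT_020). The prior count in log2 ratios was 0.5. No p-value was computed, as each group is 1 library, and genes were counted at 2-fold. Intervals (Clopper-Pearson for ratios, Wilson for shares, Poisson for levels, all 95%) cover counting error only and treat estimates as reads. Alternatives were other scalings (median of ratios by DESeq2 1.42.0, total counts, upper quartile, totals without mitochondrial and rRNA genes), a 1.5-fold rule, a prior count of 5, other minimum counts (10, 200, none), the deposited FPKM or TPM as log2(value + 1) where a library reached 1, summed or excluded overlapping genes, and, added later, centring in 10 by 10 bins of GC content and length of GENCODE 44 canonical transcripts. The bins held 13853 nuclear genes, and the mitochondrial mRNAs were placed in them by their own GC content and length. Positions and overlaps came from RefSeq (GRCh38.p14, 44698 rows matched), and mitochondrial sequence from the GRCh38 reference. Python 3.11.15 with pandas 2.3.3 and scipy 1.17.1 was used. The calculation was tested on simulated counts with Poisson error only, so that test does not bear on other differences between libraries. Counts and intervals are given for all mitochondrial mRNAs and all nuclear members; of each further list the 2 highest and 2 lowest ratios are named, and other genes were chosen after their values were seen. Members and lists were chosen with earlier results of these data known.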

Additional observations from a re-analysis of the deposited data

How the results depend on the processing

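No paired analysis was possible because each group has 1 library. Under every alternative run, all 13 mitochondrial mRNAs stayed above 0, and the number at least 2-fold higher was 5 except with summed frames (4 of 11 units) and with a 1.5-fold rule (10). Their median ran from 0.75 with upper quartile scaling to 0.92 with centring on GC content and length. The 13 mRNAs took 4.80% (vehicle) and 8.64% (iMQT_020) of deposited TPM, and 1.755% and 3.24% of counts without rRNA genes. With deposited TPM, CYTB was at 1.34 and the median of the complex V mitochondrial mRNAs at 0.76. None of the 33 measured nuclear members was 1.5-fold apart by counts, and no nuclear member was 2-fold apart under any alternative run, PPARGC1A included where the minimum count was 10 or none. Their median was −0.05 with upper quartile scaling and 0.02 with deposited TPM, so its sign depends on the scaling. Of 264 values of nuclear members under alternatives, 18, from 12 genes, had the opposite sign to the main value and 1, GRSF1 when centred, was 0. Leaving out the members that overlap another gene kept 16, with a median of −0.02. Leaving out a library was not possible, and depth limits only PPARGC1A among the members.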
